A study of Mus musculus with 25 samples.

Results

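The fragments described here were listed for both protein pairs that contain MAML and for none of the other 4 pairs mapped in the study. They were selected on the deposited split DamID (SpDamID) lists: a fragment was a member when the same chromosome, start and end stood in the N1/MAML and the Mef2c/MAML list and in none of the N1/RBP, N1/p300, N1/N1 and Mef2c/p300 lists. On chromosomes 1 to 19 and X, 1224 of 96405 distinct fragments met this rule, and 1221 did so outside a window on chromosome 11 (build mm9, 50060000 to 50100000) that is reported on separately. All libraries came from mK4, a mouse cell line from embryonic kidney mesenchyme. N1/MAML (N1-D with MAML-AM-Ert2) had 3 libraries and Mef2c/MAML (Mef2c-D with MAML-AM-Ert2) had 1, and the 3 Dam control libraries served as background for both. The Mef2c/MAML library has the strain label CD3, whereas the N1/MAML and Dam libraries have CD1. Of the lists that members are absent from, N1/RBP and N1/p300 had 3 libraries each, N1/N1 had 2 and Mef2c/p300 had 1. Absence from a list means that no score was listed there, which does not show a lack of signal. FAIRE, which extracts open chromatin, was run on N1wt cells (3 libraries and 1 input) and control cells (3 libraries), and N1 was mapped by ChIP through a myc tag (1 library and 1 input). Both FAIRE lists used here, total and Notch-dependent, were read from their names as lists of the 3 N1wt libraries. No label spells this out. No label gives a treatment, a dose or separate cultures behind the replicates.

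SpDamID splits the bacterial methylase Dam into parts that do not work alone, fuses them to a pair of proteins, and methylates adenine in GATC sites where the pair meets. A fragment is the stretch between neighbouring GATC sites that the enzyme DpnI cuts once they are methylated. MAML (Mastermind-like) is a co-activator that does not bind DNA by itself. In Notch signalling it docks on the surface formed by the cleaved receptor N1 (Notch1) and the DNA-binding protein RBP, and it recruits the acetyltransferase p300. Mef2c is a MADS-box transcription factor that binds A/T-rich elements, and MAML proteins are also known as co-activators of Mef2c in muscle cells. A fragment that N1/MAML and Mef2c/MAML share thus has MAML in common and a different partner in each pair. Each list pools its libraries, so a fragment has 1 score per list, no value per library and no replicate error. Both lists also share their Dam control, so their scores are given side by side and their overlap is not offered as a result.

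Members were a small part of either list. They made up 7.40% of the 16545 N1/MAML fragments and 2.43% of the 50380 Mef2c/MAML fragments. Of all distinct fragments, 17.2% stood in the N1/MAML list and 52.3% in the Mef2c/MAML list. The rule used both memberships, so nothing is read from these shares. Of the 10487 fragments common to both MAML lists, the 1224 members were 11.7%. A further 14.5% (1521) stood in 1 other list, 17.8% (1870) in 2, 28.3% (2968) in 3 and 27.7% (2904) in all 4.

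Scores are whole numbers on a scale that the deposited lists do not explain. Members had a median N1/MAML score of 288 (quartiles 157 and 420), against 366 (202 and 513) over the whole list. Their median Mef2c/MAML score was 399 (quartiles 271 and 493), against 350 (197 and 484) over that list. Members therefore sat low in the N1/MAML list and slightly high in the Mef2c/MAML list as a whole. The 9263 fragments of both MAML lists that at least 1 other list held had medians of 440 and 521. Against these fragments members were low in both scores. Both scores reached the median of their list in 291 members (23.8%). In 447 (36.5%) the Mef2c/MAML score did so and the N1/MAML score did not, in 145 (11.8%) the reverse held, and in 341 (27.9%) both were below.

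**Figure D1:**
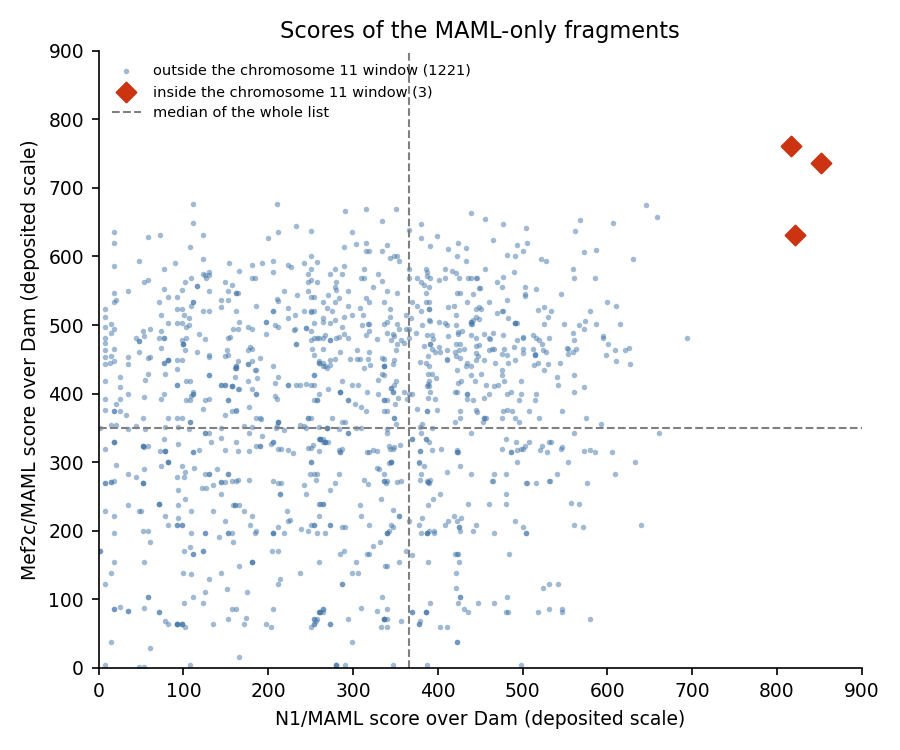
Score of each of the 1224 members in the N1/MAML list (x axis) and in the Mef2c/MAML list (y axis), both over Dam on the deposited scale; dashed lines are the medians of the whole lists, 366 and 350. The 3 members of the chromosome 11 window, at N1/MAML scores of 817 to 852, lie apart from the other 1221, none of which exceeds 694.

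The members with the highest N1/MAML scores lay in the chromosome 11 window, as did the highest Mef2c/MAML scores of any member, 761 and 736. At 50076088 to 50077026 the scores were 852 for N1/MAML and 736 for Mef2c/MAML. At 50073115 to 50075609 they were 821 and 631, and at 50079989 to 50080145 they were 817 and 761. Outside the window no member exceeded 694 for N1/MAML or 677 for Mef2c/MAML, so the Mef2c/MAML score of 631 was within the range found outside. The window also held 2 fragments that missed the rule because N1/N1 listed them too. These were 50071425 to 50072897, with scores of 870 for N1/MAML, 800 for Mef2c/MAML and 204 for N1/N1, and 50078833 to 50079988, with 869, 809 and 178. Of the 20 highest scores in each list, 5 of N1/MAML and 4 of Mef2c/MAML fell in this window. None of its 12 listed fragments lay in a FAIRE region, and the member at 50079989 was in N1 ChIP, at a ratio of ChIP to input of 13.0. Without the window the shares of members were 31.6% for total FAIRE, 3.52% for the Notch-dependent regions and 4.996% for N1 ChIP, against 31.5, 3.51 and 5.07% with it. The genes in this window were not analysed here.

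Outside the window, the 12 members with the best mean of both ranks included 2 on chromosome 4 and 1 each on 10 others. The ranks were not scaled to list size, so that of Mef2c/MAML (50380 fragments) spans a wider range than that of N1/MAML (16545). The first of the 12 was on chromosome 12, 89607123 to 89607432, with scores of 646 for N1/MAML and 675 for Mef2c/MAML. Next came chromosome 13, 42329494 to 42329774, with 658 and 657, and chromosome 16, 98094160 to 98094489, with 607 and 649. These 3 lay outside total FAIRE and outside N1 ChIP. On chromosome 4, 137912680 to 137913029 scored 568 and 653 and lay in a total FAIRE region (MACS score 118) that is also listed as Notch-dependent. On chromosome 15, 78938420 to 78938765 scored 587 and 609 and lay in a total FAIRE region with a MACS score of 143. The other 7 were chromosome 14, 86653901 to 86654255 (562 and 637), chromosome 1, 40599488 to 40599816 (630 and 596), chromosome 4, 151008777 to 151009044 (573 and 606), chromosome 7, 38098284 to 38098712 (504 and 642), chromosome 9, 109871023 to 109871369 (477 and 647), chromosome 2, 153540001 to 153540362 (456 and 655), and chromosome 19, 28867787 to 28868112 (505 and 619). In all, 10 of the 12 lay outside total FAIRE and 0 lay in N1 ChIP. The nearest fragment of the other 4 lists was over 20 kb away for 5 of them and abutted 4 of them. Of all 1224 members, 838 lay outside total FAIRE and 62 lay in N1 ChIP. Such a fragment was over 20 kb away for 142 of the 1224 and abutted 409. For comparison, total FAIRE held 19.3% of all distinct fragments and N1 ChIP held 1.41%. With only 12 members, nothing is read from these counts.

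Members were short. Their median length was 355 bp (quartiles 314 and 408), against 475 bp (396 and 578) for the 9263 fragments of both MAML lists that at least 1 other list also held and 600 bp (459 and 842) for all other distinct fragments. Of the members, 87.3% (1068) were up to 450 bp long, against 23.4% of all other distinct fragments. Fragments in the N1/MAML list alone had a median of 1990 bp and those in the Mef2c/MAML list alone one of 448 bp. Fragments in both p300 lists and no other, the counterpart of the members for the co-activator p300, had a median of 653 bp and numbered 352.

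**Figure D2:**
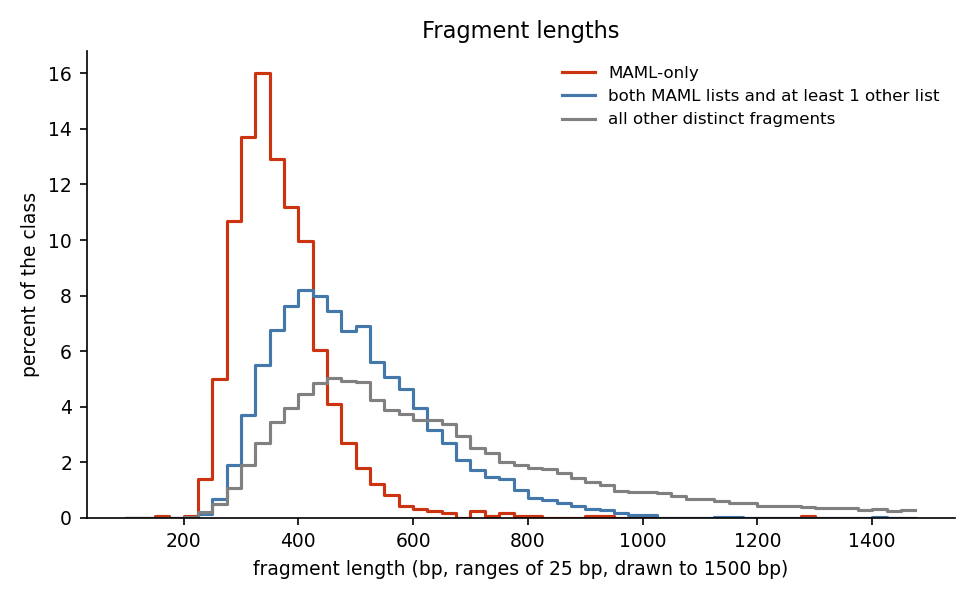
Fragment length in ranges of 25 bp (x axis) against the percent of each class in that range (y axis), for members, for fragments of both MAML lists that at least 1 other list holds, and for all other distinct fragments. The members peak between 300 and 400 bp and are nearly gone by 600 bp; 0.245% of the members and 7.35% of all other fragments are 1500 bp or longer and are not drawn.

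Lists differed in how many short fragments they held, and this moved with the absences that define the members. Of the 1730 distinct fragments of 251 to 300 bp, 3.76% stood in N1/RBP and 4.16% in Mef2c/p300, against 40.2% in N1/MAML and 76.1% in Mef2c/MAML. N1/p300 held 20.8% of them and N1/N1 16.2%. Among the 20979 fragments of 601 to 800 bp the order differed, with 38.8% in N1/RBP and 48.0% in Mef2c/p300, against 9.48% in N1/MAML and 47.8% in Mef2c/MAML. Accordingly, members were 44.6% (198 of 444) of the fragments common to both MAML lists at 251 to 300 bp and 29.7% (364 of 1226) at 301 to 350 bp. They were 5.86% (81 of 1383) at 451 to 500 bp and 0.988% (16 of 1619) at 601 to 800 bp. How much of the absence from the other 4 lists goes with length alone was not tested.

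Open chromatin was a measure that the rule did not use. Total FAIRE regions held 386 of the 1224 members, 31.5% (exact Clopper-Pearson 95% interval 28.9 to 34.2%). Of all distinct fragments 19.3% lay in total FAIRE, as did 37.9% of the whole N1/MAML list and 21.9% of the whole Mef2c/MAML list. Members thus stood below the first of these lists and above the second. The whole lists that members are absent from had 36.5% (N1/RBP), 37.7% (N1/p300), 35.3% (N1/N1) and 18.2% (Mef2c/p300). Fragments in N1/MAML alone had 12.4% (interval 11.4 to 13.4%), those in Mef2c/MAML alone 8.70% (8.34 to 9.07%) and those of both p300 lists only 9.09% (6.30 to 12.6%). Members were above these classes by 19.2 points (Newcombe 95% interval 16.4 to 22.0), 22.8 points (20.3 to 25.5) and 22.4 points (18.2 to 26.1). The first 2 differences had this direction on each of the 20 chromosomes and the third on 18. Fragments of both MAML lists with at least 1 other list were higher still, at 51.8%, and those in all 6 lists stood at 63.5%. Members minus these classes gave -20.3 points (-23.0 to -17.4) and -32.0 points (-35.1 to -28.8), with members lower on all 20 chromosomes in both cases. These intervals cover counting error only, and fragments that lie close together are not independent.

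**Figure D3:**
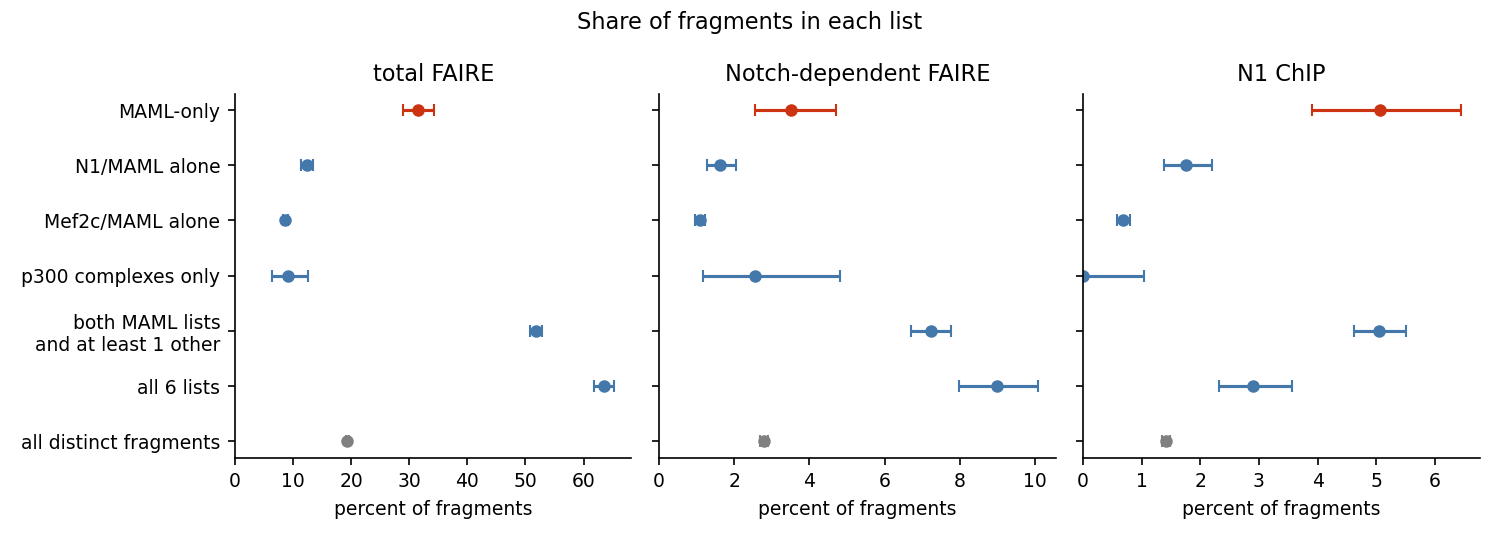
Percent of fragments (x axis) that overlap regions of N1 ChIP, total FAIRE and Notch-dependent FAIRE, by class; points are shares and bars exact 95% intervals for counting error. Members, in red, lie above both single-list MAML classes in every panel, below the fragments that further lists share in both FAIRE panels, and beside them in N1 ChIP, at 5.07% and 5.05%.

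At matched length the gap to both single-list MAML classes was smaller. With each class weighted to the members' numbers in 9 length ranges, a setting added after the lengths were seen, total FAIRE held 24.8% of N1/MAML alone, 13.8% of Mef2c/MAML alone and 57.2% of the fragments that further lists share. Members were 6.78 points above the first (interval 2.86 to 10.7) and 17.7 points above the second, and the difference from the third was -25.7 points. With fragments limited to 251 to 450 bp, which kept 1047 members, the difference from N1/MAML alone was 4.13 points and its interval, -0.409 to 8.55, included 0. The short members had the larger shares: 43.9% (87 of 198) at 251 to 300 bp, 35.2% (128 of 364) at 301 to 350 bp and 27.1% (80 of 295) at 351 to 400 bp. From 401 to 450 bp the share was 24.2% (46 of 190), and from 451 to 500 bp it was 19.8% (16 of 81).

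**Figure D4:**
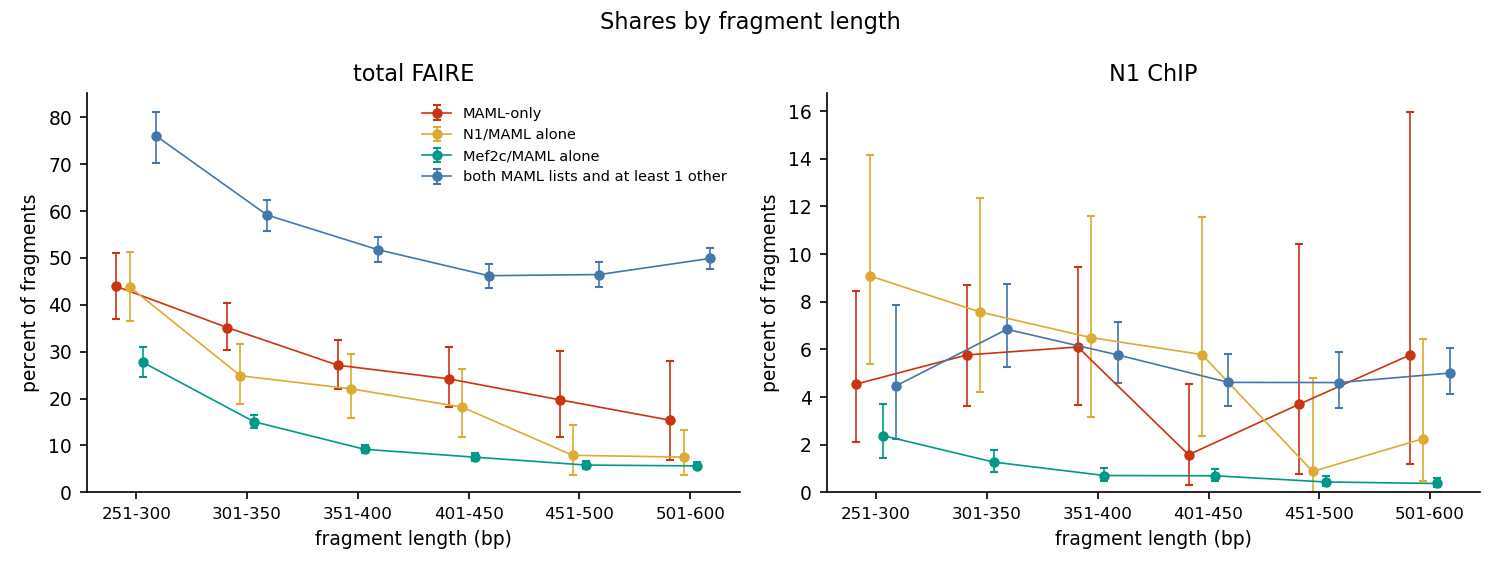
Percent of fragments in total FAIRE and in N1 ChIP (y axes) by fragment length from 251 to 600 bp (x axes), for members and for 3 further classes; bars are exact 95% intervals. In total FAIRE the members lie above Mef2c/MAML alone and below the fragments that further lists share in every range, and at 251 to 300 bp they stand at 43.9% beside 43.9% for N1/MAML alone.

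The deposited list of Notch-dependent FAIRE regions held 43 members, 3.51% (interval 2.55 to 4.70%). Its share of all distinct fragments was 2.8%, within that interval. The whole N1/MAML list had 5.34%, above the interval, and the whole Mef2c/MAML list had 3.04%, within it. Members stood 1.89 points (0.904 to 3.13) above N1/MAML alone, at 1.62%, and 2.43 points (1.52 to 3.62) above Mef2c/MAML alone, at 1.08%. Against the fragments that further lists share, at 7.22%, the difference was -3.71 points (-4.76 to -2.42), and against those in all 6 lists, at 8.99%, it was -5.47 points (-6.89 to -3.93). The share in both p300 lists only was 2.56% (9 of 352), and the difference of 0.956 points had an interval from -1.45 to 2.65. Weighted to the members' lengths, N1/MAML alone reached 3.50%, 0.0169 points from the members (-1.62 to 1.66), and all other fragments reached 3.91%, a difference of -0.398 points (-1.47 to 0.675). When fragments that abut the other 4 lists were left out, the difference from N1/MAML alone was 0.862 points (-0.0141 to 2.13), and between 251 and 450 bp that from both p300 lists only (33 fragments) was -8.21 points (-23.4 to -0.776).

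All 43 of these members also lay in total FAIRE, as did 2605 of the 2695 distinct fragments in the Notch-dependent list. The best ranked, on chromosome 4, is described above. It was followed by chromosome 11, 35796391 to 35796729, with scores of 559 for N1/MAML and 581 for Mef2c/MAML and a Notch-dependent FAIRE score of 206. On chromosome 18, 32604668 to 32604933 had 561 and 569 with a FAIRE score of 216, and on chromosome 7, 16793167 to 16793495 had 615 and 502 with a FAIRE score of 361, the highest of the 10 best ranked. The median Notch-dependent FAIRE score was 132 for the 43 peaks with a member and 132 for all 2396 peaks.

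N1 ChIP held 62 members, 5.07% (interval 3.91 to 6.45%), whereas it held 1.41% of all distinct fragments. The whole N1/MAML list had 4.11%, within the members' interval, and the whole Mef2c/MAML list had 1.77%. Members were 3.31 points (2.13 to 4.73) above N1/MAML alone, at 1.76%, and 4.38 points (3.28 to 5.76) above Mef2c/MAML alone, at 0.686%. Of the 352 fragments of both p300 lists only, 0 lay in N1 ChIP, which allows a share of up to 0.852%. The fragments in all 6 lists stood at 2.89%, a difference of 2.17 points (0.888 to 3.65). Its interval included 0 with scores from the list median up (1.82, -0.224 to 4.85) and between 405 and 786 bp (0.528, -1.19 to 3.27). The fragments that further lists share had 5.05%, 0.0130 points from the members (-1.18 to 1.45). The direction against N1/MAML alone differed between the length settings, and between 405 and 786 bp it was kept (0.724 points, -1.75 to 3.64). Weighted to the members' lengths, that class reached 6.47%, and the difference was -1.40 points (-3.54 to 0.733). Between 251 and 450 bp members were lower than N1/MAML alone, with a difference of -2.55 points and an interval, -5.10 to -0.237, that excluded 0. Against Mef2c/MAML alone, at 1.22% when weighted, members were 3.85 points above (2.60 to 5.10).

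The ends of the ChIP region and the fragment were identical for all 62 members, as for all 1361 distinct fragments in ChIP. The ratio of ChIP to input ran from 10.04 to 63.4 with a median of 14.0, against 14.2 over the 5858 ChIP regions of at least 300 bp. The input signal was 0.1 for 53 of the 62 members and for 1064 of the 1361 distinct fragments. It was also 0.1 for 20102 of all 22306 ChIP regions. Where the input has this value, the ratio is set by the ChIP signal alone, which had a median of 1.43 in the members. The best ranked members in ChIP were chromosome 10, 26093253 to 26093571 (scores of 491 for N1/MAML and 601 for Mef2c/MAML, ratio 11.1, outside FAIRE), chromosome 5, 144166041 to 144166340 (426 and 546, ratio 35.4, in total FAIRE) and chromosome 8, 94881150 to 94881440 (549 and 502, ratio 23.2, in total FAIRE). N1 ChIP held 42 of the 386 members in open chromatin (10.9%, interval 7.96 to 14.4%) and 20 of the 838 outside it (2.39%, 1.46 to 3.66%). Over all distinct fragments the shares were 4.51% inside and 0.669% outside total FAIRE. No member was in Notch-dependent FAIRE and in ChIP at once. With 0 of 43, a share of up to 6.98% is allowed, and over all distinct fragments it was 0.816% (22 of 2695). Outside all 3 of these lists lay 818 members, 66.8%, against 80.04% of all distinct fragments.

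Members are one end of a series formed by the number of further lists that hold a fragment of both MAML lists. Total FAIRE shares were 31.5% for the members with none, then 37.9, 41.8, 53.7 and 63.5% with 1, 2, 3 and 4 further lists. Notch-dependent FAIRE shares were 3.51, 4.67, 5.19, 8.09 and 8.99% in the same order. N1 ChIP shares had no such order, with 5.07, 4.67, 6.04, 6.74 and 2.89%. The median length also went up along the series, with 355, 394, 430, 474 and 551 bp. So did the median N1/MAML score, with 288, 340, 393, 468 and 491, and the median Mef2c/MAML score, with 399, 448, 488, 519 and 574. The number of lists, the length and the score thus move together here, and their parts were not separated beyond the weighting by length.

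**Figure D5:**
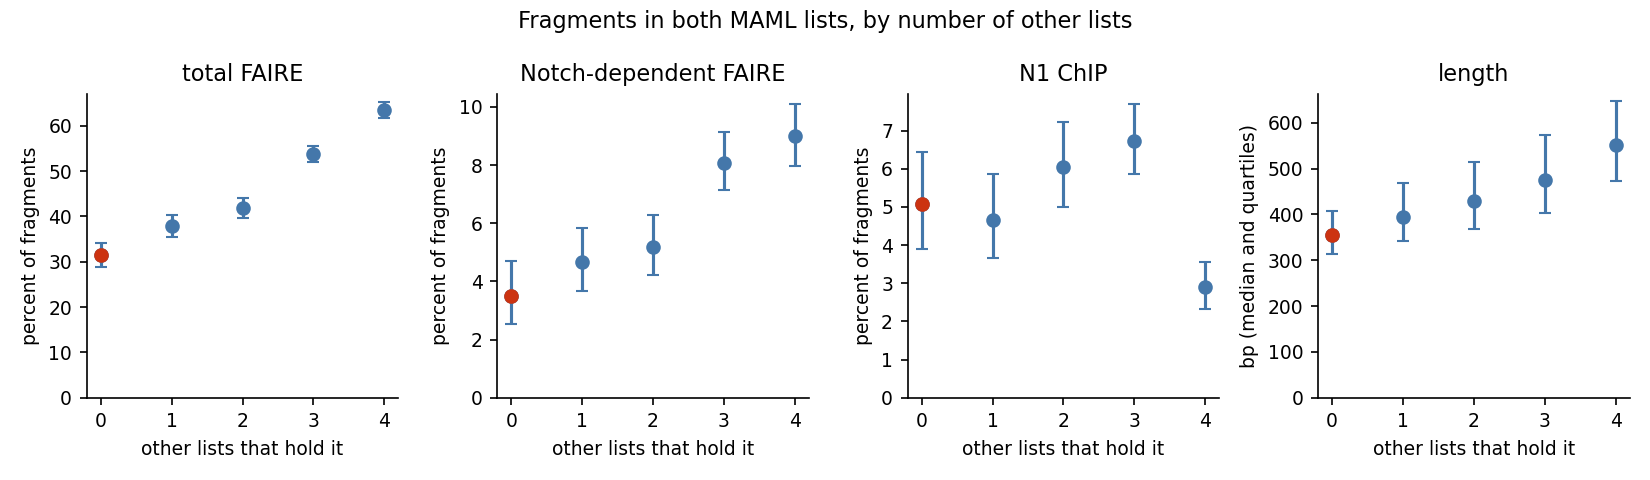
Fragments of both MAML lists by the number of other lists that also hold them (x axes): share in N1 ChIP, total FAIRE and Notch-dependent FAIRE with exact 95% intervals, and median length with quartiles (y axes). Members are the red points at 0; both FAIRE shares and the length are lowest there, while the N1 ChIP share is lowest at 4, with 2.89%.

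Fragments with exactly 1 further list differed by which list it was. With N1/p300 (546 fragments, median length 355 bp) 45.6% lay in total FAIRE (interval 41.4 to 49.9%), and with N1/N1 (299, 355 bp) 48.8% did (43.0 to 54.6%). The members, of the same median length, had 31.5%. With N1/RBP (583, 457 bp) the share was 28.0% (24.3 to 31.8%) and with Mef2c/p300 (93, 450 bp) it was 19.4% (11.9 to 28.9%). N1 ChIP held 5.31% with N1/p300, 5.02% with N1/N1, 4.46% with N1/RBP and 1.08% (1 of 93) with Mef2c/p300.

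Score and open chromatin were compared next. Members in the upper score quartile of the N1/MAML list (513 or more) lay in total FAIRE in 39.8% of cases (43 of 108), against 29.0% (114 of 393) in the lower quartile (202 or less), a difference of 10.8 points (0.906 to 21.2). With the members cut at their own quartiles the shares were 31.9% (97 of 304) in the upper and 30.8% (96 of 312) in the lower, so the difference depended on the cut. In the rest of that list the quartiles had 55.5% and 25.8%, 29.7 points apart (27.6 to 31.8). For Mef2c/MAML, members in the upper quartile (484 or more) had 27.2% (91 of 335) and those in the lower quartile (197 or less) 31.9% (60 of 188), a difference of -4.75 points (-13.0 to 3.25). At the members' own quartiles the shares were 25.8% (79 of 306) and 34.7% (107 of 308). The rest of that list had 36.5% and 12.5%, 23.9 points apart (22.9 to 24.9). N1 ChIP shares of members differed by less than their intervals for both scores, with 5.56% and 4.58% for N1/MAML and 4.18% and 6.38% for Mef2c/MAML. The median length of members was 315 bp in the upper and 375 bp in the lower N1/MAML quartile, and the part of length in this difference was not tested. For Mef2c/MAML it was 360 and 347 bp.

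Members lay beside fragments of the lists they are absent from more often than either single-list MAML class did. A fragment of N1/RBP, N1/p300, N1/N1 or Mef2c/p300 abutted 409 members, 33.4% (interval 30.8 to 36.1%). The same 4 lists abutted 9.49% of the fragments in N1/MAML alone and 16.6% of those in Mef2c/MAML alone. By list, N1/RBP abutted 22.8% of members, N1/N1 22.4%, N1/p300 16.3% and Mef2c/p300 10.8%. The median gap to the nearest fragment of these lists was 388 bp, against 9458 bp for N1/MAML alone and 2778 bp for Mef2c/MAML alone. It was up to 2 kb for 786 members (64.2%) and over 20 kb for 142 (11.6%). Such shares were not computed over all distinct fragments or over the fragments that further lists share. The neighbours also come from the same 4 lists that the rule used, so the values are a description only.

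The members with such a neighbour and those without differed in open chromatin. Of the 409 that abutted one, 42.1% (37.2 to 47.0%) lay in total FAIRE, against 26.3% (23.3 to 29.4%) of the other 815. Notch-dependent FAIRE held 6.36% and 2.09% of these, and N1 ChIP 4.65% and 5.28%. Median lengths were 335 and 367 bp, and the part of length was not tested. Among the 142 members with no such fragment within 20 kb, 16.2% (10.6 to 23.3%) lay in total FAIRE, 1 lay in Notch-dependent FAIRE and 2 lay in N1 ChIP.

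Members marked 379 total FAIRE regions. Their median MACS score was 167 and their median length 1012 bp, against 157 and 903 bp over all 19353 regions. Another fragment of the other 4 lists lay in 228 of the 379 regions (60.2%, interval 55.0 to 65.1%). The share of all regions was 55.7%, within that interval. The other 151 regions with a member held no such fragment, and nothing is read from this count. N1/RBP marked 46.2% of the regions with a member and 41.0% of all regions. Of the 43 Notch-dependent regions with a member, 33 (76.7%, 61.4 to 88.2%) held such a fragment, against 64.6% of all, and 10 did not. Of the 388 overlaps between a member and a total FAIRE region, 59.3% had the member wholly inside, with a median distance between centres of 299 bp. For the longer fragments that further lists share these values were 59.1% and 287 bp, and for Mef2c/MAML alone they were 33.1% and 434 bp.

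Members occurred on every chromosome and, at a distance of 10 kb, mostly singly. By chromosome they were 0.831% (26 of 3129, interval 0.543 to 1.22%) of the distinct fragments on chromosome 16 to 1.64% (108 of 6575, 1.35 to 1.98%) on chromosome 11. Taken with centres within 10 kb of each other, 1131 members stood alone, 42 runs held 2 and 3 runs held 3. One run of 3 is that of the chromosome 11 window. The tightest lay on chromosome 4, with 43570789 to 43571107 (N1/MAML score 125, Mef2c/MAML score 343), 43571866 to 43572165 (609 and 463) and 43573056 to 43573396 (419 and 222), the first 2 of them in total FAIRE. The other lay on chromosome 1, with 138034155 to 138034548 (164 and 406), 138035014 to 138035481 (54 and 322) and 138038670 to 138039043 (304 and 350). On chromosome 14 an abutting pair, 51709047 to 51709317 (563 and 465) and 51709318 to 51709643 (466 and 94), lay in open chromatin. The second pair, 85838155 to 85838432 (125 and 197) and 85838433 to 85838815 (135 and 229) on chromosome 15, did so too. Standing alone at 10 kb does not exclude grouping over longer distances. Near the end of chromosome 2, several members of one identical length, each abutting a fragment of the other lists, lay more than 10 kb apart. Sequences were not compared, so whether these are separate sites or copies of one sequence was not tested. Runs within 10 kb were not counted for other classes.

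The rule has an edge on either side. Just inside, the lowest ranked members included chromosome 6, 94465008 to 94465565, with scores of 8 for N1/MAML and 4 for Mef2c/MAML, and chromosome 13, 72099452 to 72099773, with 54 and 1. Just outside stood 96 fragments of both MAML lists whose only further list held them in the lowest 5% of its scores, with a median length of 378 bp. The best ranked of these was chromosome 11, 84730208 to 84730588, at 560 for N1/MAML and 614 for Mef2c/MAML, with 29 for N1/p300. Next was chromosome 7, 66057113 to 66057424, at 550 and 584, with 10 for N1/p300. If a further list counted only from its median score up, 2726 fragments would meet the rule in place of 1224.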

How the data were processed

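The 6 deposited SpDamID lists give 1 score per fragment, taken over Dam with a confidence level set at 0.999 or more, per the file headers. List names were read as protein initials. The deposited FAIRE lists hold MACS peaks with a MACS score, per the file headers. For ChIP the authors deposited a signal for ChIP, a signal for input and their ratio, with no header; regions with a ratio of 10 or more are listed. The build is mm9, per the submitters' processing notes. For the aligner, the depth per library and the choice of Notch-dependent peaks, nothing is given in the sources used here. Positions were compared as 1-based with both ends included, after adding 1 to FAIRE starts, and an overlap was 1 bp or more. Shares carry exact Clopper-Pearson 95% intervals, differences Newcombe 95% intervals, and length-weighted differences normal 95% intervals, all for counting error only. The limit beside a count of 0 is 3 counts of the total. With no value per library, no test over libraries was made and no p-value is given.

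The members, comparison classes and settings were chosen with earlier results of these data known. The class of fragments that further lists share, the length weighting and the range of 251 to 450 bp were added after values were seen. Members named are those of the chromosome 11 window, the 12 best and the lowest by mean rank of both scores, the 3 runs of 3 within 10 kb and, of the 42 runs of 2, those with the smallest span, and fragments just outside the rule. Since no member lay in Notch-dependent FAIRE and ChIP at once, the best of each were named instead, after values were seen. No genome or annotation of mm9 was used, so genes, sequences and motifs are not analysed here. Scripts ran in Python 3.11.15 with pandas 2.3.3 and scipy 1.17.1, and the overlap functions were checked against a plain loop.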

Additional observations from a re-analysis of the deposited data

How the results depend on the processing

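Of the recomputed values, 161 stayed within the 95% interval of the value reported (for numbers of members, within 1.5 times it) and 71 moved beyond it. The difference in N1 ChIP from N1/MAML alone changed sign under 2 settings. Differences whose interval already included 0 also changed sign under some settings: Notch-dependent FAIRE against both p300 lists only and against all other fragments, and N1 ChIP against fragments with at least 1 other list. Values below are percentage points of members minus the named class, in the order N1/MAML alone, Mef2c/MAML alone, both p300 lists only, all 6 lists, all other fragments, and both MAML lists with at least 1 other, unless stated. In the common length window of 405 to 786 bp, which kept 312 members, total FAIRE gave 10.7, 13.9, 9.996, -42.6, 3.27 and -28.9, with the members at 20.2%. N1 ChIP gave 0.724, 3.07, 3.53, 0.528, 2.13 and -1.19 there, with the members at 3.53%. Notch-dependent FAIRE, with the members at 1.60%, gave 0.740, 0.814, -7.14 (all 6 lists) and -0.702 (all other). Here the interval included 0 for total FAIRE against all other fragments, for N1 ChIP against N1/MAML alone, all 6 lists and at least 1 other, and for these Notch-dependent values other than that of all 6 lists.

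Between 251 and 450 bp, total FAIRE gave 4.13 (N1/MAML alone, interval including 0) and 17.4 (p300 only). Notch-dependent FAIRE gave 0.207 (N1/MAML alone, interval including 0), -8.21 (p300 only, 33 fragments, interval -23.4 to -0.776, so excluding 0) and -7.46 (all 6 lists), and N1 ChIP gave 2.49 (all other) and the changed sign of -2.55 (N1/MAML alone, interval -5.10 to -0.237). Weighted to the members' lengths, total FAIRE gave 6.78, 17.7, -40.2 (all 6 lists), 6.13 and -25.7. Notch-dependent FAIRE gave 0.0169 (N1/MAML alone), -2.49 (p300 only), -6.92, -0.398 and -5.82. N1 ChIP gave 2.44 (all other) and the changed sign of -1.40 (N1/MAML alone). The weighted values for p300 only and all 6 lists rest on 8 length ranges and 1203 members. These classes held few short fragments, with 1 and 7 at 251 to 300 bp and 2 and 36 at 301 to 350 bp. Both changes of sign come with settings that equalise length; the cause was not tested.

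With stricter FAIRE peaks and ChIP regions, total FAIRE gave 9.89, 12.6, 13.1, -25.4, 6.22 and -15.8, with the members at 17.3%. Notch-dependent FAIRE gave 0.802 and 1.23, with the members at 1.80%. When absence was also required of abutting fragments, 815 members were left, of which 26.3% lay in total FAIRE and 2.09% in Notch-dependent FAIRE. Total FAIRE then gave 19.3 (Mef2c/MAML alone), 17.3, -37.3, 7.09 and -25.5, and Notch-dependent FAIRE gave 0.862, 1.34, -6.90 (all 6 lists), -0.700 and -5.14; the interval of the 0.862 against N1/MAML alone included 0. With scores from the list median up, 291 members were left. Total FAIRE gave 16.0 (N1/MAML alone), -41.1 (all 6 lists) and -33.4 (with at least 1 other), Notch-dependent FAIRE 2.99 (p300 only) and -5.95 (with at least 1 other), and N1 ChIP 2.02 (N1/MAML alone) and -1.33 (with at least 1 other). An overlap of 50% put 26.2% of members in total FAIRE, 15.6 points above N1/MAML alone, and the region centre put 26.1% there. The difference in N1 ChIP from p300 only had an interval including 0 with scores from the median up (4.12, -0.410 to 7.07) and between 251 and 450 bp (4.87, -5.62 to 6.35). With runs within 500 bp merged, the difference in Notch-dependent FAIRE from all other fragments excluded 0 (1.13, 0.219 to 2.34). Counting the other lists from their median score up gave 2726 members. The class with at least 1 other list, the range of 251 to 450 bp and the weighting were chosen after seeing the data.

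No paired analysis was possible because the deposited lists hold no value per library, and for the same reason no replicate was left out. The settings on sequence and on gene starts were not run, since no genome or annotation of mm9 was used here. Depth per library is unknown.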
